A study of Bos taurus with 18 samples.

Results

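SLC14A1 codes for UT-B, a channel protein that lets urea cross cell membranes down its concentration gradient. It was followed here as 1 gene of 30642 in a table of read counts from 18 libraries. They were made from MAC-T, a bovine cell line of mammary epithelial origin that was immortalised for culture. The gene was chosen from the measured values: it differed between cells in lactogenic and in basal medium. Its levels by medium are therefore given as a description, with no test. Only heat and recovery, for which it was not chosen, were tested, though comparisons with unheated cells share libraries with the difference that chose it. It passed the filter on low counts, as did 15158 genes in all. The value that chose it was an adjusted p of 0.000556 in a fit of the unheated groups' difference that also took account of the run (edgeR's quasi-likelihood test with a replicate block). The next genes outside the threshold of 0.05 were CD36 and BOLA-DQB, both at 0.135.

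The libraries formed 6 groups of 3, and each replicate number stood for 1 run of the whole experiment. All cells were grown for 4 days in high-glucose DMEM with insulin at 5 µg/ml and hydrocortisone at 1 µg/ml, so a glucocorticoid was present in every group. Undifferentiated cells stayed in this basal medium, which held 10% FBS, and were either unheated (NHSUD) or held at 42 °C for 1 h (HSUD). Differentiated cells were given lactogenic medium, the basal medium supplemented with 5% FBS, ovine prolactin at 5 µg/ml and dexamethasone at 10 µg/ml. Whether the 5% FBS was added to the 10% of the basal medium or took its place is not clear from the labels, so serum may have been higher or lower in lactogenic medium. They were unheated (NHSD), heated for 1 h at 42 °C (HSD), or returned to 37 °C after heating for 2 h (D2R) or 6 h (D6R). The contributions of prolactin, dexamethasone and serum cannot be told apart, since they differed together. Both unheated groups shared a plate, both heated groups shared another, and both recovery groups shared the last one. The medium was thus compared within plates in the unheated and in the heated cells. Comparisons of all 12 lactogenic with all 6 basal libraries include the recovery plate, which had no basal cells. Heat, and recovery against unheated or heated cells, cannot be told apart from the plate. The line is 1 immortalised cell line, and p-values measure the spread between runs of its culture. With the replicate block they measure how much the differences within a run vary from run to run.

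Urea is made from arginine by arginase, and it passes membranes through the urea transporters UT-B (SLC14A1) and UT-A (SLC14A2) and through some aquaporins. UT-B is known from red blood cells, where it carries the Kidd blood group, from the vessels of the kidney medulla, and from the rumen wall of cattle, where it returns blood urea to the rumen. In dairy cows the urea in milk follows the urea in blood. Prolactin acts through its receptor PRLR, the kinase JAK2 and the transcription factors STAT5A and STAT5B, and dexamethasone through the glucocorticoid receptor NR3C1.

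Library totals ranged from 40.9 to 61.2 M counts. SLC14A1 had 697 to 1901 counts in the basal libraries and 1629 to 3052 in the lactogenic ones. If each read pair was counted as 2 reads, the counting error was 2.56 to 5.36% of the value. The spread between the libraries of a group was larger, with a coefficient of variation of 10.7% in HSD to 32.9% in NHSUD. Of the 7 mammary epithelial markers, 7 were tested. Their summed level was 19300 to 25300 CPM (counts relative to the library total after TMM scaling) in the basal libraries and 14200 to 22100 in the lactogenic ones. Milk protein genes were near 0, with 14 reads of 5 genes in all 18 libraries. Among the keratins, KRT5 was highest, at 11900 to 17400 CPM in basal and 8580 to 14900 CPM in lactogenic libraries. KRT19 was lowest, at 2.95 to 8.28 and 3.79 to 11.0 CPM. The label of epithelium was met by the keratins, though weakly by KRT19. The milk proteins did not meet that of mammary epithelium.

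In basal medium SLC14A1 stood at a lower level than in lactogenic medium in every run. The unheated basal libraries (NHSUD) held 31.6, 24.2 and 15.9 CPM in runs 1, 2 and 3. The heated basal libraries (HSUD) held 23.7, 29.2 and 18.1 CPM. The ranges of these groups overlapped, with run 3 lowest in both.

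In lactogenic medium the unheated libraries (NHSD) held 64.3, 48.0 and 46.9 CPM in the same order of runs. The heated libraries (HSD) held 50.3, 50.9 and 41.8 CPM. All 4 lactogenic groups overlapped each other. After 2 h of recovery (D2R) the values were 49.3, 53.2 and 40.6 CPM, and after 6 h (D6R) they were 55.1, 50.9 and 34.3 CPM. Run 3 was lowest in 6 of 6 groups, and the lowest lactogenic library of all, D6R of run 3, still lay above the highest basal one, NHSUD of run 1.

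**Figure D1:**
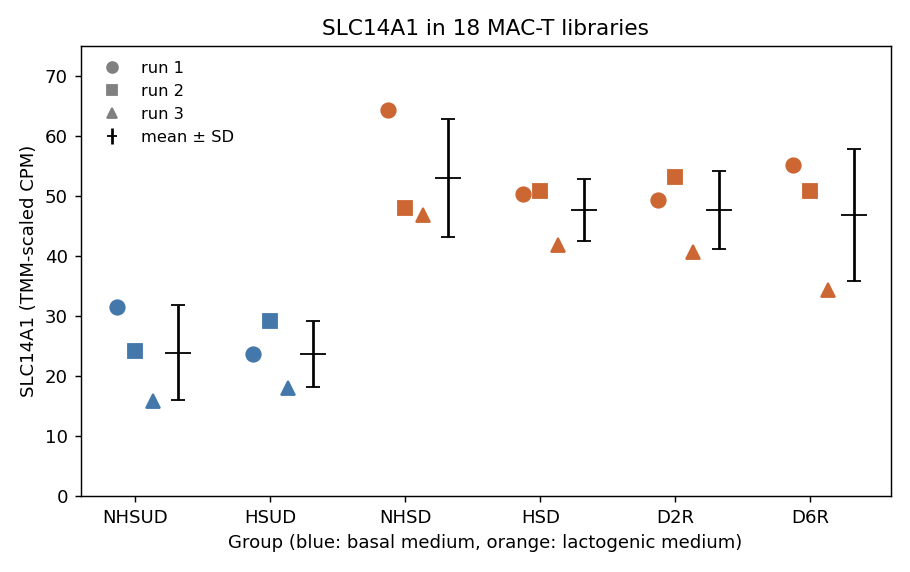
SLC14A1 in TMM-scaled CPM (vertical axis) in each of the 18 libraries by group, with the run given by the symbol and the mean ± SD of 3 libraries as a bar. The 6 basal libraries lie between 15.9 and 31.6 CPM and the 12 lactogenic libraries between 34.3 and 64.3 CPM.

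Ordered by mean, NHSD came first at 53.0 ± 9.76 CPM (SD, n = 3). HSD followed at 47.7 ± 5.11 CPM, D2R at 47.7 ± 6.44 CPM and D6R at 46.8 ± 11.0 CPM. NHSD and HSD overlapped and differed by less than the SD of NHSD, and the other neighbours differed by less than the SD of either group. NHSUD at 23.9 ± 7.87 CPM and HSUD at 23.7 ± 5.55 CPM formed the lower end, and also differed from each other by less than their SDs. The one step in this order with no overlap of libraries was that from D6R to NHSUD.

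Over all libraries the basal mean was 23.8 ± 6.09 CPM (SD, n = 6) and the lactogenic mean 48.8 ± 7.64 CPM (SD, n = 12). These 12 include the D2R and D6R libraries, which have no basal counterpart. The 12 and the 6 libraries did not overlap. This separation also held with DESeq2 size factors, where the highest basal and lowest lactogenic values were 31.9 and 34.2 CPM, and with library size alone, where they were 31.1 and 36.1 CPM. Such a separation was rare among the tested genes, of which 0.119% were higher and 0.0528% lower in all 12 lactogenic libraries. It is part of what chose the gene, and nothing is read from it. Among these 26 genes alone, SLC14A1 had the largest fitted difference, a log2 fold change of 1.03 ± 0.15 (SE), or 2.05-fold. TRIM63, a ubiquitin ligase of muscle, and CD36, a fatty acid translocase, came next with log2 fold changes of 0.94 and 0.91. Both were picked out after their values were seen. Among all 10070 genes with a mean of at least 5 CPM, SLC14A1 ranked 7 from the highest. In absolute log2 fold change, 8 of those genes were larger.

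The difference had the same direction in every run, and its size varied most from run to run in the unheated cells. Averaged over the groups of a medium on the log scale, lactogenic libraries held 1.99-fold the basal level in run 1, 1.91-fold in run 2 and 2.39-fold in run 3. The unheated cells differed by 2.03-fold, 1.98-fold and 2.95-fold in the 3 runs, and the heated cells by 2.12-fold, 1.74-fold and 2.31-fold. Run 3, which had the lowest levels, thus had the largest ratio in both comparisons. On the log2 scale the mean within-run difference was 1.19 ± 0.32 without heat and 1.03 ± 0.21 with heat (SD, n = 3 runs). The difference between these values was not tested; their ranges over runs overlapped.

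Within each run, all 4 lactogenic libraries lay above both basal libraries. In run 1 the basal values were 23.7 to 31.6 CPM and the lactogenic ones 49.3 to 64.3 CPM. In run 2 they were 24.2 to 29.2 and 48.0 to 53.2 CPM, and in run 3 they were 15.9 to 18.1 and 34.3 to 46.9 CPM. The order of the lactogenic groups changed from run to run: NHSD was highest in runs 1 and 3 and lowest of the 4 in run 2.

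**Figure D2:**
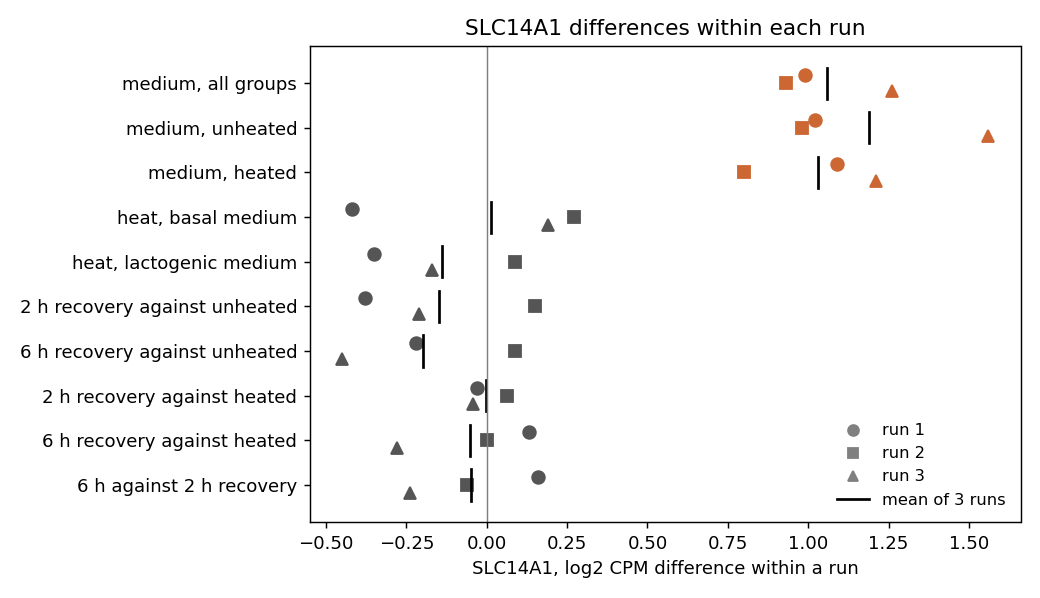
Differences in log2 CPM of SLC14A1 within each run (horizontal axis) for 10 contrasts (rows), with 1 symbol per run and a bar for the mean of 3 runs. The 3 medium contrasts (orange) lie between 0.80 and 1.56 in every run, and each of the 7 heat and recovery contrasts (grey) has at least 1 run on either side of 0.

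The medium accounted for most of the variation in this gene. Of the sum of squares of its log2 CPM over 18 libraries, 77.1% lay between the media (recovery groups included), 1.1% between the groups within a medium, 15.5% between runs, and 6.23% remained. Over the 10070 genes with a mean of at least 5 CPM, the median shares were 4.36% for the medium and 41.9% for the run. On log2(CPM + 1), used for all genes, SLC14A1 had a medium share of 77.2%, and 1 gene had a higher share, DIRC2 (SLC49A4, a lysosomal membrane transporter), at 78.2%. These shares describe the contrast by which SLC14A1 was chosen. Its coefficient of variation between libraries in the edgeR fit was 0.21 without and 0.122 with the replicate block, close to the values common to all genes of 0.245 and 0.14.

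SLC14A1 is also a gene of the urothelium, and urothelial markers were present in these cells. The summed level of the 4 urothelial markers was 138 to 204 CPM in the basal and 143 to 237 CPM in the lactogenic libraries, mostly from UPK1B and UPK2, with UPK3A at 4 reads in all. Of the erythroid markers, HBB and SLC4A1 each had 4 reads in all 18 libraries, and the 3 erythroid genes summed together reached at most 0.0519 CPM in the basal and 0.187 CPM in the lactogenic libraries. The 4 endothelial markers summed to 0.794 to 2.78 CPM in the basal and 1.09 to 4.26 CPM in the lactogenic libraries, with KDR at 4 reads and CDH5 at 3 in all. Fibroblast markers ranged from 468 to 805 CPM and from 426 to 820 CPM, nearly all from DCN, while COL1A1 had 94 reads in all. Leukocyte markers summed to at most 1.98 CPM. The ranges of all these lists overlapped between the media, and their part in the SLC14A1 difference was not tested. In such bulk RNA, more cells with the transcript and more transcript per cell cannot be told apart.

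Whether 1 h at 42 °C changed SLC14A1 was tested in each medium. The transcript was not called in either. In basal medium the mean went from 23.9 to 23.7 CPM. The log2 fold change was -0.015 ± 0.24 (SE), with a 95% interval of -0.52 to 0.49 and an adjusted p of 0.999 (edgeR). It was higher with heat in 2 of 3 runs and lower in run 1. In lactogenic medium the mean went from 53.0 to 47.7 CPM. The log2 fold change was -0.15 ± 0.24 (SE), with a 95% interval of -0.65 to 0.35 and an adjusted p of 0.996 (edgeR). It was lower in 2 of 3 runs and higher in run 2. Both heat contrasts share their unheated libraries with the contrast that chose the gene, which was low in NHSUD and high in NHSD. Their estimates are therefore not free of that choice. Heat called 0.125% of all tested genes in basal medium and 0.099% in lactogenic medium.

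These intervals bound the change. In basal medium they ran from 0.698 to 1.40 times the unheated level, and in lactogenic medium from 0.636 to 1.27 times. The replicate block narrowed them to 0.824 to 1.23 times and 0.741 to 1.09 times. A change by the size of the medium difference lay outside all 4 intervals, which share libraries with the contrast that chose the gene. In lactogenic medium, 40.7% of the 10070 genes of at least 5 CPM had a larger absolute log2 fold change with heat than SLC14A1, and in basal medium 93.0% had.

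Recovery also left SLC14A1 without a call. Against unheated differentiated cells the log2 fold change was -0.15 ± 0.24 (SE) after 2 h and -0.18 ± 0.24 after 6 h (edgeR, adjusted p of 0.999 and 0.994). The 95% intervals were -0.65 to 0.35 and -0.68 to 0.32. The replicate block narrowed them to -0.44 to 0.13 and -0.48 to 0.079. Without the block these contrasts called 0.0792% and 0.0132% of all genes. They share the NHSD libraries with the heat contrast in lactogenic medium and with the contrast that chose the gene, which was high in NHSD. In each of them the estimate was lower than NHSD in runs 1 and 3 and higher in run 2. Single libraries carried much of this. Without the NHSD library of run 1, the highest of all at 64.3 CPM, the log2 fold change was 0.0094 both for heat in lactogenic medium and for 2 h of recovery. For 6 h of recovery it was -0.02 without that library and -0.00011 without the D6R library of run 3. Leaving out the whole of run 1 gave -0.047 for heat, -0.012 for 2 h and -0.15 for 6 h of recovery.

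Comparisons that leave out the NHSD libraries lay nearer to 0. From the end of heat to 2 h of recovery the level went from 47.7 to 47.7 CPM, a fitted ratio of 1 with a 95% interval of 0.707 to 1.42 (edgeR, adjusted p of 1; 0.0528% of genes called). The within-run differences were -0.029, 0.062 and -0.042 on the log2 scale, the narrowest spread of the 10 contrasts. From the end of heat to 6 h of recovery the log2 fold change was -0.027 ± 0.24 (SE; adjusted p of 0.981; 0.066% of genes called). Between 2 h and 6 h of recovery it was -0.028 ± 0.24 (SE; adjusted p of 1). In that last contrast edgeR called 0% of genes, with 585 at an unadjusted p under 0.05, and DESeq2 called 3. Run 1 went from 49.3 to 55.1 CPM between these times while run 3 went from 40.6 to 34.3 CPM, so the runs did not move together.

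**Figure D3:**
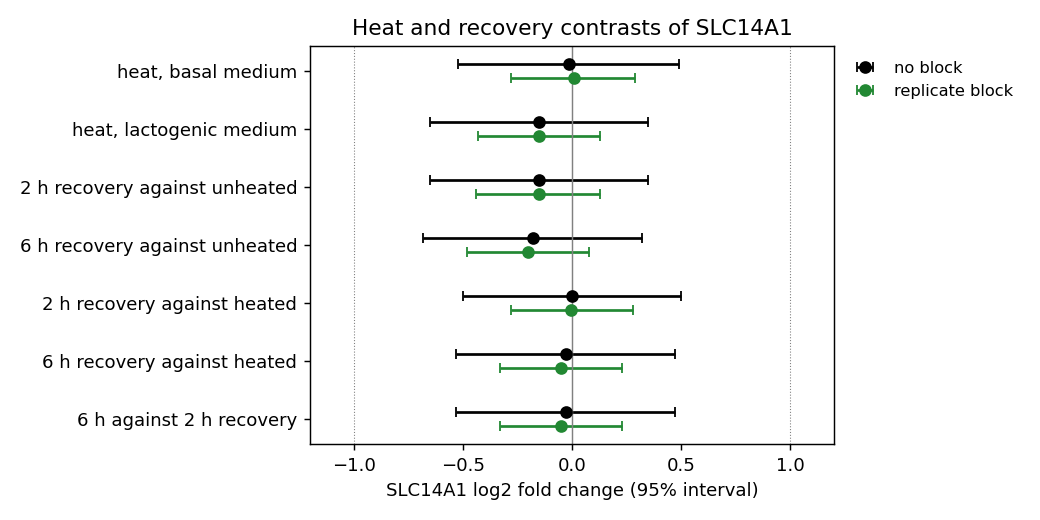
Fitted log2 fold changes of SLC14A1 (horizontal axis) with 95% intervals for the 7 heat and recovery contrasts (rows), without (black) and with (green) the replicate block; dotted lines mark a change of 1 in either direction. Every interval includes 0 and lies between -0.68 and 0.50.

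The other routes for urea and the genes of its supply were examined next, from 6 lists of 58 genes beside SLC14A1. All 58 were in the table and 44 passed the filter on low counts. SLC14A2, which codes for UT-A and is the nearest relative of SLC14A1, had 4 reads in 2 of 18 libraries and was not tested. AQP3, an aquaglyceroporin that can pass urea as well as water and glycerol, was at 0.0236 to 0.511 CPM and at most 27 reads in a library. Its log2 fold change between the media was -0.39 ± 0.42 (SE; edgeR, adjusted p of 0.813). Of the 12 other urea transporters and aquaporins, 6 were tested. EdgeR called 0 in the 60 tests of 6 genes and 10 contrasts, without or with the block, and DESeq2 called 0. At an unadjusted p under 0.05 there were 0 without the block and 1 with it, shares of 0% and 1.67% against 4.63% and 12.8% over all genes and the same contrasts. Their median log2 fold change between the media was -0.20, against -0.0081 over all genes, with 2 of 6 higher. At such low counts these medians rest on few reads.

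Arginase, the enzyme that releases urea from arginine, was represented by ARG2. The liver form ARG1 had 6 reads in all. ARG2, the mitochondrial form, was at 53.0 ± 8.98 CPM in NHSUD, 56.3 ± 10.2 in HSUD, 51.9 ± 4.26 in NHSD and 59.8 ± 5.73 in HSD (SD, n = 3). It was at 68.1 ± 6.12 CPM in D2R and 67.5 ± 2.50 in D6R. Its log2 fold change between all lactogenic and all basal libraries was 0.17 ± 0.089 (SE; edgeR, adjusted p of 0.566). Between the unheated groups it was -0.028 ± 0.14. The highest group means were those of the recovery groups, which existed in lactogenic medium only.

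Between the media over all groups, edgeR called 0 of the 44 list genes, against 0.119% of all genes. At an unadjusted p under 0.05 there were 6 of the 44, or 13.6% against 9.32% of all genes. DESeq2 called 1, the arginine and neutral amino acid exchanger SLC7A6, or 2.27% against 1.23% of all genes. Under the replicate block the count was 7, a share of 15.9% against 6.52% of all genes. Of these, 4 were higher in lactogenic medium, as were 3.13% of all genes, and 3 were lower, as were 3.38%. Between the media in unheated cells, 0 of the 44 were called without or with the block or by DESeq2, where edgeR called 0% of all genes without and 0.0066% with the block. At an unadjusted p under 0.05 there were 1 without and 3 with the block (2.27% and 6.82%, against 1.67% and 5.31% of all genes). In heated cells the count was likewise 0 by each method, against 0% and 0.0198% of all genes in edgeR. Here 0 and 4 had an unadjusted p under 0.05 (0% and 9.09%, against 1.76% and 6.35% of all genes).

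Heat itself called 0 of the 44 in either medium, without or with the block or by DESeq2. Under the block it called 0.633% of all genes in basal and 0.554% in lactogenic medium, and DESeq2 called 0.567% and 0.402%. In each medium 1 of the 44 without and 4 with the block had an unadjusted p under 0.05, or 2.27% and 9.09%. Over all genes these shares were 4.21% and 12.6% in basal medium and 4.42% and 12.1% in lactogenic medium. The lack of a call does not show that no list gene changed. SLC5A3 of the osmolyte list was likewise not called with heat in either medium. Picked out after its values were seen, it was at 14.4 ± 4.05 CPM in NHSUD and 41.9 ± 8.50 in HSUD. It was at 16.5 ± 5.45 CPM in NHSD and 42.4 ± 7.47 in HSD (SD, n = 3). In each medium 3 of the 6 tested osmolyte genes had a positive log2 fold change with heat.

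Among arginine transporters, SLC7A2 and SLC7A6 were the 2 of 5 tested that were higher in lactogenic medium under the block. SLC7A2, a cationic amino acid transporter, had a log2 difference of 0.31 ± 0.079 (SE), with an adjusted p of 0.0247 in edgeR with the replicate block. SLC7A6 had 0.49 ± 0.12 (0.0215), and held 5.45 ± 0.102 CPM in NHSUD and 7.92 ± 1.00 CPM in NHSD (SD, n = 3). In edgeR without the block neither was called (0.581 and 0.218). DESeq2, also fitted without the block, called SLC7A6 (adjusted p of 0.0417). The other list genes called under the block were 3 of polyamine turnover, 1 of proline and ornithine synthesis and 1 of the osmolyte list. AZIN1, an inhibitor of antizyme, changed by -0.28 ± 0.051 (0.00305) and SRM, spermidine synthase, by -0.36 ± 0.084 (0.0144). SAT1, which acetylates polyamines for export or breakdown, changed by 0.31 ± 0.079 (0.023). ALDH18A1, which makes the precursor of proline and ornithine, changed by -0.38 ± 0.067 (0.0023), and SLC38A2, a sodium-coupled neutral amino acid transporter, by 0.29 ± 0.067 (0.0126). Without the block none of these 5 was called (0.27, 0.619, 0.631, 0.329 and 0.374). All these differences include the recovery libraries, which have no basal counterpart. In unheated cells alone, under the block, they were -0.16 ± 0.084 (SE) for AZIN1, -0.18 ± 0.11 for ALDH18A1 and 0.17 ± 0.11 for SLC38A2. For SLC7A2 and SLC7A6 they were 0.41 ± 0.13 and 0.53 ± 0.20.

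Some of these genes were called in the recovery contrasts too, and there with the block only. Between the media in unheated cells, the log2 fold changes of SRM and SAT1 under the block were -0.0053 ± 0.14 and 0.017 ± 0.13 (SE). After 6 h of recovery against NHSD they were -0.80 ± 0.14 for SRM and 0.64 ± 0.13 for SAT1 (edgeR with the replicate block, adjusted p of 0.00818 and 0.0161; 1.45% of all genes called). After 2 h SAT1 stood at 0.73 ± 0.13 (0.0134; 0.224% of all genes called). From the end of heat to 6 h of recovery, SRM changed by -0.72 ± 0.14 and ALDH18A1 by -0.42 ± 0.11 (0.0111 and 0.0431; 3.27% of all genes called). Without the block the adjusted p after 6 h against NHSD was 0.763 for SRM and 0.883 for SAT1, and after 2 h it was 0.999 for SAT1. Against heated cells it was 0.593 for SRM and 0.614 for ALDH18A1. Without the block edgeR called 0 of the 44 in each of these 3 contrasts, as did DESeq2. At an unadjusted p under 0.05 there were then 3 after 2 h and 3 after 6 h against NHSD (6.82% each, against 3.08% and 6.07% of all genes) and 4 after 6 h against heated cells (9.09% against 8.34%). For SLC14A1 the mean within-run log2 difference between the media was 1.19 in unheated cells alone and 1.06 over all groups.

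The receptors of the added hormones were measured alongside. PRLR was at 0.0248 to 0.459 CPM, with at most 22 reads in a library. NR3C1 was at 24.9 to 36.9 CPM in the 18 libraries. Between the media PRLR had a log2 difference of -0.15 ± 0.49 (SE), with an adjusted p of 0.946 in edgeR, and NR3C1 did not pass either (adjusted p of 0.995). Of the 7 genes of this list 6 were tested. EdgeR called 0 in 60 tests over the 10 contrasts without and with the block, and DESeq2 called 0. At an unadjusted p under 0.05 there were 2 and 8, shares of 3.33% and 13.3% against 4.63% and 12.8% over all genes. The median log2 fold change between the media was -0.12, against -0.0081 over all genes.

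Of the chromosomal neighbours of SLC14A1, only 3 were tested between the media in the same fit. None of these was called, where 0.119% of all genes were, so little can be read from it. In the RefSeq gene table its closest protein-coding neighbours were SLC14A2, SETBP1 and MC2R on one side and SIGLEC15, EPG5 and PSTPIP2 on the other, and 0 genes of that table overlapped it. MC2R had 0 reads, and SIGLEC15 at most 12 in a library. SETBP1, a DNA-binding protein, was at 14.6 ± 2.97 CPM in basal (SD, n = 6) and 16.9 ± 6.73 CPM in lactogenic libraries (SD, n = 12). EPG5, an autophagy tether, was at 23.4 ± 4.03 and 25.1 ± 5.55 CPM, and PSTPIP2, an actin-associated adaptor, at 10.5 ± 1.62 and 11.7 ± 2.45 CPM. Their log2 fold changes between the media were 0.19 ± 0.22, 0.09 ± 0.13 and 0.15 ± 0.15 (SE), and edgeR called none of the 3 (adjusted p of 0.825, 0.878 and 0.783).

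Genes with a pattern like that of SLC14A1 were ranked by Pearson's r over the 18 libraries, after the mean of each run was subtracted, among 9762 other genes. The 5 highest were CD46, a complement regulator (r = 0.91), PDPN, the surface glycoprotein podoplanin (0.90), BOLA-DQB, an MHC class II beta chain (0.89), DIRC2 (0.89) and ACKR4, a scavenging chemokine receptor (0.88). These values share libraries and scaling, were picked as the extremes of 9762, and mostly reflect the gap between the media. Within the 12 lactogenic libraries r was 0.61 for PDPN, 0.42 for CD46 and ACKR4, 0.20 for DIRC2 and -0.27 for BOLA-DQB. Without subtracting the run means only PDPN stayed among the first 5 (r = 0.87), and ACKR4 went to 0.39.

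BOLA-DQB went from 4.02 ± 1.88 CPM in basal (SD, n = 6) to 9.63 ± 3.06 CPM in lactogenic libraries (SD, n = 12), and its reads may be shared with other class II copies. ACKR4 went from 35.6 ± 7.34 to 57.1 ± 17.3 CPM and DIRC2 from 43.4 ± 3.24 to 57.7 ± 4.36 CPM. PDPN went from 81.2 ± 5.79 to 102 ± 8.80 CPM and CD46 from 966 ± 58.1 to 1110 ± 59.2 CPM. The most opposite genes were E2F2, a cell cycle transcription factor (r = -0.91; 12.1 ± 2.40 to 8.21 ± 2.53 CPM), CXHXorf38 (-0.89; 48.7 ± 2.58 to 42.0 ± 2.39 CPM) and SERPINE2, a secreted protease inhibitor (-0.88; 2580 ± 424 to 2320 ± 338 CPM). Without subtracting the run means r was -0.31 for E2F2, -0.71 for CXHXorf38 and -0.69 for SERPINE2. Within the 12 lactogenic libraries it was -0.51, 0.062 and -0.52 in the same order.

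**Figure D4:**
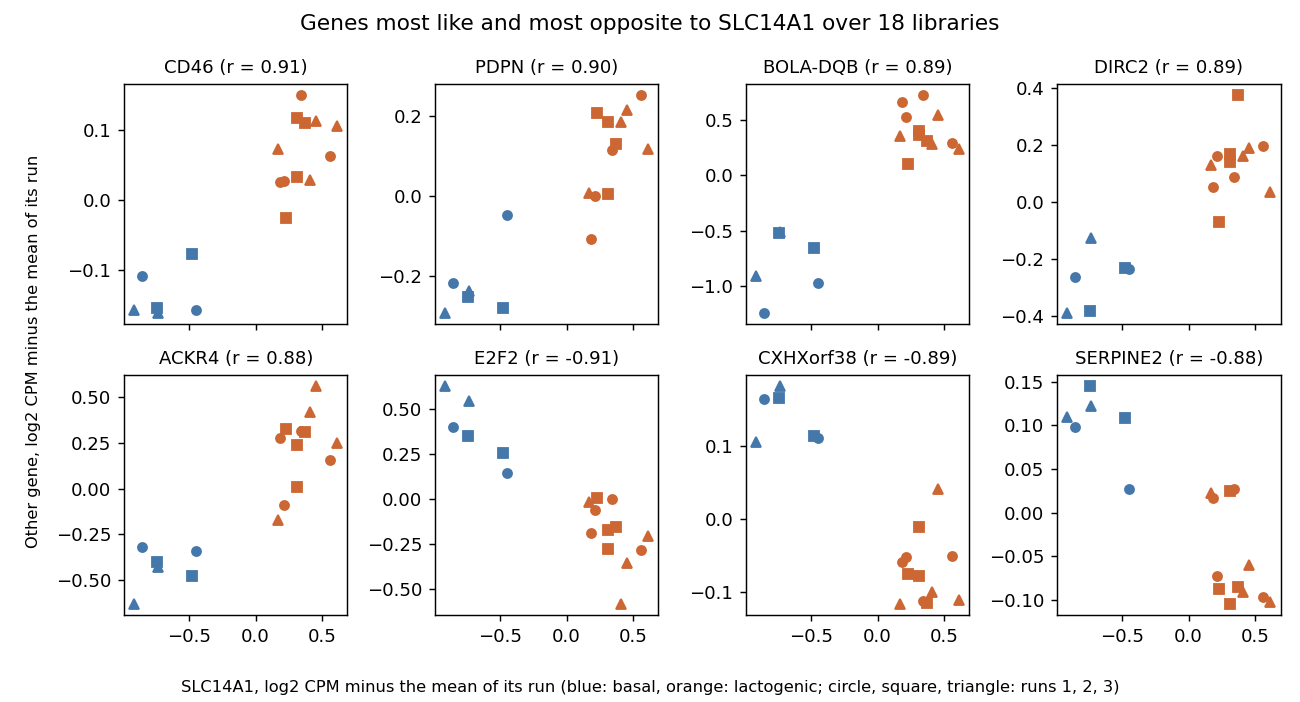
Log2 CPM of the 5 genes most like and the 3 most opposite to SLC14A1 (vertical axes) against SLC14A1 (horizontal axis), each minus the mean of its run, in 18 libraries, with the media in colour and the runs by symbol. The basal and lactogenic libraries form separate clusters along the SLC14A1 axis, and within the 12 lactogenic libraries r ranges from 0.61 for PDPN to -0.27 for BOLA-DQB among the 5 most like genes.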

How the data were processed

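Poly-A RNA of 18 MAC-T libraries was analysed from 1 deposited table of raw read counts (30642 genes). The authors pooled the RNA of 2 technical replicates per library, used fastp 0.23.2 for quality control and STAR 2.7.9a for alignment to ARS-UCD 1.3, per the labels' protocols. The submitters' processing notes also list featureCounts 2.0.3, DESeq2 and limma, without roles. The strand setting is not given in the sources used here. Among counts of 1 to 20, 72.7% were even, so both mates of a pair may have been counted.

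Counts were filtered (edgeR 4.0.16, filterByExpr, minimum count 10; 15158 genes left), scaled by TMM and fitted over all libraries with 1 mean per group in R 4.3.3. Contrasts were tested two-sided by edgeR's quasi-likelihood test (robust estimation), with Benjamini-Hochberg adjustment over all genes tested and a threshold of 0.05. The code was checked on simulated data for heat in lactogenic medium only. The simulated spread was set rather than estimated from these data, so that check does not measure how the method performs here. Alternatives were DESeq2 1.42.0, other scalings and filters, the compared groups alone, the replicate block, and leaving out libraries or whole runs. Labels state that the experiment was repeated, and deviations from group means correlated at 0.2 to 0.82 in all 45 same-numbered library pairs (median of -0.298 in other pairs), so the numbers paired the libraries. No 2 libraries were duplicates (smallest chi-square per gene 63.5).

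SLC14A1 and all lists were chosen with earlier results of these data known. Named genes were SLC14A1, 6 genes of its pathway or of hormone reception (SLC14A2, AQP3, ARG1, ARG2, PRLR, NR3C1), list members called in any contrast with or without the block, 3 chromosomal neighbours on each side, and the 5 highest and 3 lowest correlates of at least 5 CPM with a gene symbol. Gene order came from the RefSeq table of ARS-UCD 2.0, which is not the authors' build, so no coordinates are given; 24553 gene names (80.1%) matched it. Of the marker lists, 1 gene is not reported here.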

Additional observations from a re-analysis of the deposited data

How the results depend on the processing

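The medium difference of SLC14A1 stayed positive in 68 of 68 alternative fits. The gene was chosen for this difference and its libraries did not overlap between the media, so the sign could hardly have turned. Nothing is read from that count. The log2 fold change between the media ranged from 0.92 to 1.16 over all groups, from 0.92 to 1.40 without heat and from 0.85 to 1.19 with heat. In the 7 heat and recovery contrasts, 0 of 133 alternative fits called the gene (lowest adjusted p of 0.502, for 6 h of recovery against unheated cells with the replicate block), and the replicate block changed none of these 7 calls. The sign turned in 25 of them, where the log2 fold change lay between -0.086 and 0.24, and the cause was not tested. With the replicate block the log2 fold change was 0.007 for heat in basal medium and -0.0028 for 2 h of recovery against heated cells, which was -0.0017 with no low-count filter. With library size alone it was 0.095 for 6 h of recovery against heated cells and 0.051 for 6 h against 2 h. With the block and without 1 run, the turned signs were 0.22 for heat in basal medium (without run 1), -0.045 for 2 h against heated cells (without run 2), and 0.065 and 0.047 for 6 h against heated cells and against 2 h (without run 3). Leaving out libraries or runs gave ranges of -0.24 to 0.24 for heat in basal medium, -0.26 to 0.0094 for heat in lactogenic medium, -0.30 to 0.0094 and -0.33 to -0.00011 for 2 h and 6 h of recovery against unheated cells, -0.086 to 0.10 and -0.16 to 0.15 for 2 h and 6 h against heated cells, and -0.16 to 0.15 for 6 h against 2 h. Medium contrasts over all groups used every library, so there was no separate fit of the compared groups. At 697 or more counts in every library, the counting error was smaller than the spread between the libraries of a group. What limited the calls was not tested.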
